A study of Homo sapiens with 19 samples.

Results

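Nonsense-mediated decay factors were followed here through the spliced reads of 9 genes: UPF1, UPF2, UPF3A, UPF3B, SMG1, SMG5, SMG6, SMG8 and SMG9. The members were named beforehand as genes, and the reads of each were those that crossed its annotated introns (GENCODE 29) and no other gene's. They are 9 of the 22760 genes with such reads. Of their 244 annotated introns, 206 had at least 1 read in the series.

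The data are counts of reads spanning splice junctions in 19 libraries of RNA freed of ribosomal RNA, from 3 human lines. HUES66 is an embryonic stem cell line, A375 a melanoma line and HEK293 an embryonic kidney line. A375 gave 3 libraries, of total, nuclear and cytoplasmic RNA, HEK293 WT gave 1, and HUES66 WT gave 1, whose description also carries the word used for the controls and the series number of the first 24 hr libraries. The other 14 libraries were HUES66 cells given 1 ug/ml doxycycline, which the control cultures received too. They comprise 3 controls (24 hr replicate 2, 48 hr, 96 hr), 3 libraries of total RBFOX2 knockdown (total KD; 24 hr replicate 1, 48 hr, 96 hr), and 4 each of N-short KD and N-long KD (both 24 hr replicates, 48 hr, 96 hr). The series title gives the means as Cas13d, an enzyme that cuts RNA at sites matched by a guide RNA, and RBFOX2, the target, is a splicing regulator. The 24 hr replicates belong to separate library series, so 4 library sets were formed: 24 hr replicate 1, 24 hr replicate 2, 48 hr and 96 hr. Nothing in the labels says whether libraries of a group came from separate cultures, so p-values measure the spread between these libraries, which may be technical.

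Nonsense-mediated decay removes messages on which a ribosome stops early, and it also sets the level of many normal transcripts. UPF1 is the RNA helicase at its core; UPF2 and the paralogs UPF3A and UPF3B link UPF1 to exon junction complexes, the protein marks left at splice junctions. SMG1 is the kinase that phosphorylates UPF1, and SMG8 and SMG9 bind SMG1 and restrain it. Phosphorylated UPF1 is bound by SMG6, an endonuclease, and by SMG5, which recruits deadenylation and decapping enzymes. A stop codon lying well upstream of the last splice junction is the usual signal for decay. Exons that create one when included are called poison exons, and skipping a coding exon can create one too.

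Junction reads per library ran from 6499183 to 27937149, and from 9622841 to 14625040 in the doxycycline libraries. RBFOX2 itself stood at 119 to 126 reads per 1000000 junction reads (CPM, the level scale used below) in the 3 controls. N-short KD had 107 to 120 CPM, N-long KD 72.7 to 87.6 and total KD 48.2 to 78.7. The summed level of 6 pluripotency markers was 2460 to 4030 CPM in the doxycycline HUES66 libraries, 3020 in HUES66 WT, 18.0 in HEK293 and 5.59 in A375; SOX2 was at 0 everywhere, as a gene without introns gives no junction reads. A375 carried SOX10 (100 CPM) and MITF (39 CPM), with MLANA and TYR at 0 and PMEL at 0.476 CPM, below the 47.9 CPM of HUES66 WT.

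Levels between genes were compared as the median CPM over the introns of each gene's principal transcript, which does not grow with the number of introns. On this scale SMG5 was highest in the doxycycline libraries, at a median of 8.84 CPM per junction (6.75 to 10.3), followed by SMG1 at 6.82 and UPF1 at 6.18. UPF3A (5.35), UPF2 (5.28) and UPF3B (4.90) formed a middle group. SMG6 (2.52), SMG8 (2.13) and SMG9 (1.68) were lowest. The order of UPF3A and UPF2 was not stable, since UPF3A was higher in 7 of 14 libraries; UPF2 exceeded UPF3B in 10 of 14. UPF3B exceeded SMG6 in all 14 doxycycline libraries and all 19 libraries. SMG1 is uncertain because 7 pseudogene copies (SMG1P1 to SMG1P7) also had junction reads, which made up 14.9% to 20.7% of the reads of SMG1 and its copies together in the doxycycline libraries.

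**Figure D1:**
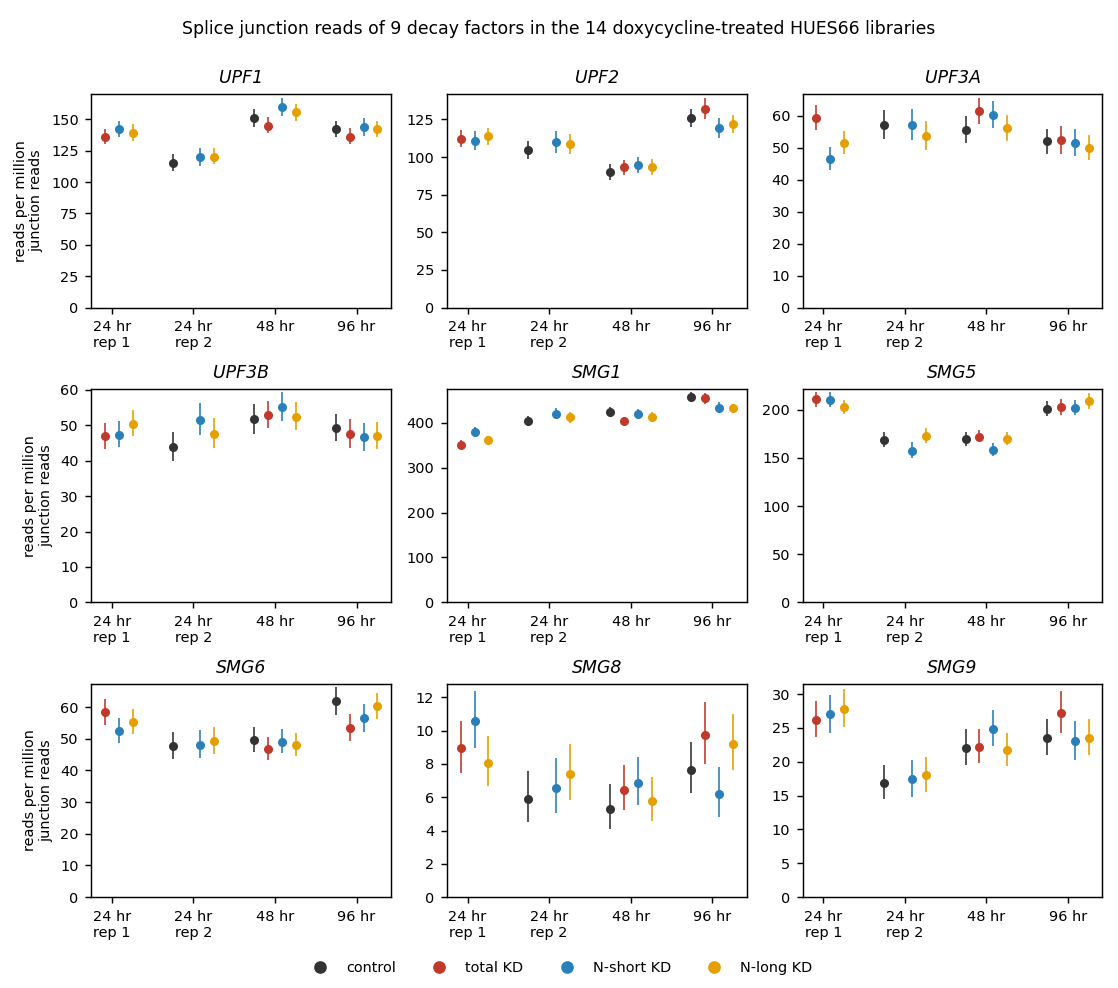
Reads per 1000000 junction reads (CPM) of each member (y axis) in the 14 doxycycline-treated HUES66 libraries by library set (x axis), coloured by knockdown; bars are 95% Poisson intervals of the count. Each 24 hr set holds 3 libraries and each later set 4; UPF2 stands at 90.1 to 94.5 at 48 hr and 119 to 132 at 96 hr.

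The knockdowns were compared with control in 1 edgeR quasi-likelihood fit of all 13628 genes that passed the filter on low counts, with terms for library set and knockdown and Benjamini-Hochberg adjustment over all of them. None of the 9 members passed an adjusted p of 0.05 in any knockdown contrast, and none reached an unadjusted p under 0.05. Over all genes tested, 2.20% were called for total KD, 0 for N-short KD, 0.0220% for N-long KD and 0.0147% for N-long KD against N-short KD, so that a list of 9 genes would hold few calls at these rates. DESeq2 likewise called 0 members in each of these contrasts, but in total KD it gave SMG8 and SMG9 no adjusted p.

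UPF1 stood at 151 CPM in control and 145 in total KD at 48 hr, and at 142 and 136 at 96 hr. Its fitted log2 fold change in total KD was -0.05 (SE 0.042, 95% interval -0.139 to 0.032). The value was 0.027 when the fit held the time point alone in place of the set. Of the bridging factors, UPF2 was at 0.05 (SE 0.049), UPF3B at 0.01 (SE 0.068) and UPF3A further from control at 0.11 (SE 0.066) on the log2 scale, with 95% intervals that span 0. UPF3A was the highest of these in total KD, with 61.4 CPM against 55.5 in control at 48 hr and 52.4 against 52.0 at 96 hr. The 95% interval of UPF3A reached 1.19-fold and that of UPF2 1.11-fold.

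Of the kinase complex, SMG1 had a log2 fold change of -0.05 (SE 0.037) in total KD and SMG9 one of 0.07 (SE 0.092). SMG8 had the largest fitted difference of any member, 0.26 (SE 0.169, edgeR adjusted p = 0.574), and the fewest reads, 63 to 147 per doxycycline library. Its levels were 6.46 CPM in total KD against 5.32 in control at 48 hr, and 9.72 against 7.66 at 96 hr. The interval of this difference, 0.942- to 1.52-fold, is the widest of the 9. The decay effectors SMG5 (0.01, SE 0.042) and SMG6 (-0.08, SE 0.065) had 95% intervals that span 0.

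With N-short KD the 9 log2 fold changes lay between -0.08 (SMG6) and 0.18 (SMG8), and with N-long KD between -0.03 (SMG1) and 0.18 (SMG8). SMG8 ranged from 0.058 to 0.379 in N-short KD when 1 library was left out (highest without the N-short KD library of 96 hr), from 0.089 to 0.234 in N-long KD and from 0.141 to 0.334 in total KD, with no call. N-long KD against N-short KD gave -0.03 (SMG1) to 0.06 (SMG5). The median absolute log2 change of the members was 0.053 in total KD, 0.028 in N-long KD and 0.050 in N-short KD, beside 0.093, 0.064 and 0.063 over all genes tested.

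**Figure D2:**
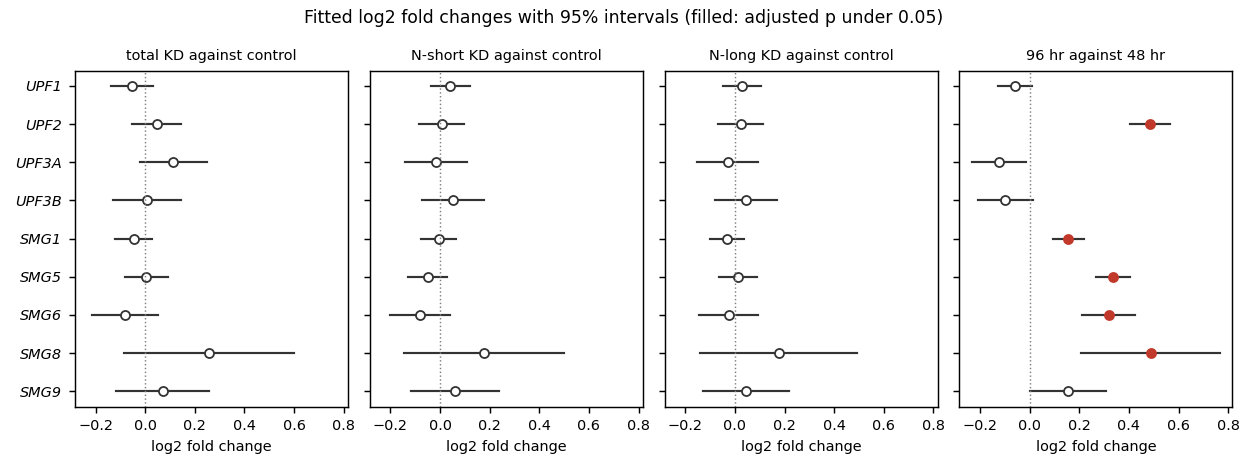
Fitted log2 fold changes of the 9 members (x axis) with 95% intervals for the knockdowns against control and for 96 hr against 48 hr; filled points have an edgeR adjusted p under 0.05. All 27 knockdown intervals span 0, and 5 members lie above 0 with filled points at 96 hr.

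Time in culture with doxycycline was compared within the same fit, as 96 hr against 48 hr, with 4 libraries at each time. UPF2, SMG8, SMG5, SMG6 and SMG1 rose, by 1.40-, 1.40-, 1.26-, 1.25- and 1.11-fold. That is 5 of 9 members, all higher, beside 59.0% of all genes called (29.3% higher and 29.7% lower), so the count of members is near the background. Each time is 1 library set, so the time and its set cannot be told apart; bulk RNA also cannot tell fewer cells of a type from less RNA per cell. The summed pluripotency markers were at 2780 to 2910 CPM at 48 hr and 3310 to 4030 at 96 hr, the 8 markers of differentiated derivatives at 0.625 to 1.29 and 0.601 to 2.19, and the 6 melanocyte genes, nearly all PMEL reads in this line, at 65.3 to 69.5 and 36.6 to 43.8; their part in the time differences was not tested.

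UPF2, the bridge between UPF1 and UPF3 proteins, had 90.1 CPM in control, 93.2 in total KD, 93.4 in N-long KD and 94.5 in N-short KD at 48 hr. At 96 hr the same groups had 126, 132, 122 and 119 CPM. All 4 libraries of 96 hr thus lay above all 4 of 48 hr, with a log2 fold change of 0.48 (SE 0.040, edgeR adjusted p = 2.52e-12). The 24 hr libraries lay between, at 105 to 114 CPM.

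SMG5, the adaptor to deadenylation and decapping, stood at 158 to 172 CPM at 48 hr and 201 to 209 at 96 hr, without overlap (log2 fold change 0.34, SE 0.034, edgeR adjusted p = 3.0e-10). The 24 hr sets straddled this range, with 203 to 211 CPM in replicate 1 and 157 to 173 in replicate 2. SMG6, the endonuclease, stood at 46.9 to 49.6 CPM at 48 hr and 53.4 to 61.8 at 96 hr (0.32, SE 0.053, adjusted p = 3.87e-06), and its 24 hr sets were at 52.5 to 58.3 and 47.7 to 49.3. For SMG5 the means of the 24 hr sets, 208 and 166 CPM, lay as far apart as those of 48 hr (168) and 96 hr (204); for SMG6 they were 55.4 and 48.4 CPM, beside 48.4 at 48 hr and 58.0 at 96 hr.

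SMG1, the kinase, was at 404 to 424 CPM at 48 hr and 432 to 457 at 96 hr (log2 fold change 0.16, SE 0.030, edgeR adjusted p = 5.21e-05). SMG8 was at 5.32 to 6.85 CPM at 48 hr and 6.20 to 9.72 at 96 hr. These ranges overlapped through the N-short KD library of 96 hr, at 6.20 CPM, and the fitted change was 0.49 (SE 0.138, adjusted p = 0.00293). SMG9, their partner, did not pass (0.16, SE 0.074, adjusted p = 0.0736), though it did without the N-short KD library of 48 hr (0.21, adjusted p = 0.0321) or of 96 hr (0.20, adjusted p = 0.0397).

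UPF1 and the 2 UPF3 paralogs had values below 0 that did not pass. UPF1 was at 145 to 160 CPM at 48 hr and 136 to 144 at 96 hr (log2 fold change -0.06, SE 0.034, edgeR adjusted p = 0.130), and UPF3B at 51.7 to 55.1 and 46.6 to 49.2 (-0.10, SE 0.055, adjusted p = 0.123). UPF3B passed without the control of 96 hr (-0.14, adjusted p = 0.0468). UPF3A was at 55.5 to 61.4 CPM at 48 hr and 49.9 to 52.4 at 96 hr (-0.12, SE 0.054, adjusted p = 0.0507). Its call turned on the processing: with introns of the principal transcript only, UPF3A was -0.19 (adjusted p = 0.00377), and it also passed in the 8 libraries of 48 and 96 hr alone (-0.12, adjusted p = 0.0418), without the control of 48 hr (-0.15, adjusted p = 0.0361) and without that of 96 hr (-0.14, adjusted p = 0.0488).

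Cassette exons, which a transcript can include or skip, were measured from the reads of their inclusion and skipping junctions. GENCODE gave 10 candidates in the members, of which 7 had at least 20 reads per library on average and a pooled inclusion of 2% to 98%. They lie in UPF3A (3), UPF3B (2) and SMG1 (2); 2 pairs overlap and share a junction, so the 7 are not independent. UPF2, SMG5, SMG6, SMG8 and SMG9 had no candidate. The 3 not tested were 2 UPF3A exons of 107 and 111 nt with pooled inclusions of 98.1% and 98.8%, and a UPF1 exon of 80 nt with 0.195%.

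The sequences below are the 3 coding exons of UPF3A and UPF3B whose use differed between 48 and 96 hr, together with the UPF1 extension described further on, because their lengths and reading frames are what the splicing measurements turn on. They were read from the GENCODE 29 transcripts (GRCh38) and are given 5′ to 3′ on the transcript strand, with the exon or extension in capitals and 20 nt of each flanking exon in lower case. The UPF3A exon of 99 nt lies at chr13:114286302-114286400 (plus strand), that of 161 nt at chr13:114298840-114299000 (plus strand), the UPF3B exon of 39 nt at chrX:119840646-119840684 (minus strand) and the UPF1 extension of 33 nt at chr19:18853072-18853104 (plus strand). All 4 are coding in their annotated transcripts (UPF3A-202, UPF3B-201 and UPF1-207).
UPF3A 99-nt exon: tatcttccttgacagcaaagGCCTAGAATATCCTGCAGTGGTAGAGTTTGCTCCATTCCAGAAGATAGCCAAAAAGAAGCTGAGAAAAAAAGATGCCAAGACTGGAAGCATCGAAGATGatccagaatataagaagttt
UPF3A 161-nt exon: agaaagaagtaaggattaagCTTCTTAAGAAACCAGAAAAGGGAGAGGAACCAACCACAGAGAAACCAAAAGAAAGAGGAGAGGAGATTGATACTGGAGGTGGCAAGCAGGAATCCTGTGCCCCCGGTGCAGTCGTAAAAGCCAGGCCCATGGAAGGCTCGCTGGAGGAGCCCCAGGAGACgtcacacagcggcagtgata
UPF3B 39-nt exon: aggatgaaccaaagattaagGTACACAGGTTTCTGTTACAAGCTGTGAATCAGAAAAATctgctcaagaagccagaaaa
UPF1 33-nt extension: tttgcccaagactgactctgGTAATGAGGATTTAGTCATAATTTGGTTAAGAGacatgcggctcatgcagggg

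UPF3A and UPF3B share this exon structure. The UPF3B transcript holds an exon of 99 nt and one of 161 nt at chrX:119845198-119845296 and chrX:119838367-119838527 (minus strand), for which no annotated skipping met the candidate rule. Compared base by base without gaps, the 99-nt exons of the paralogs were identical at 67 of 99 positions (67.7%) and the 161-nt exons at 63 of 161 (39.1%). The UPF3B 39-nt exon sits directly upstream of the UPF3B 161-nt exon. The counterparts are printed for comparison with the UPF3A exons above, without flanks.
UPF3B 99-nt counterpart exon: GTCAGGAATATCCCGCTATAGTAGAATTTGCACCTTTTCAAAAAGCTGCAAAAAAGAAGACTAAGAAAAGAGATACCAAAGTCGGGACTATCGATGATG
UPF3B 161-nt counterpart exon: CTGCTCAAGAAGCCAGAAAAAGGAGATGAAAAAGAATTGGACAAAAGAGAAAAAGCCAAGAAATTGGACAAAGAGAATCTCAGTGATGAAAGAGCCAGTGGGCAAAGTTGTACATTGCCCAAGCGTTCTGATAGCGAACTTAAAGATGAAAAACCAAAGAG

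Reading frames were followed on the annotated transcripts. Skipping the UPF3A 99-nt exon keeps the frame and shortens the coding sequence from 476 to 443 codons. Without the 161-nt exon the UPF3A frame shifts and meets a stop after 287 codons, 277 nt upstream of the last junction. The UPF3B 39-nt exon keeps the frame, with 483 codons when included and 470 when skipped. A SMG1 exon of 58 nt (chr16:18899987-18900044, minus strand), between the first exon and the next of the principal transcript, would stop the frame of that transcript after 33 of 3661 codons, although the transcripts annotated with it place their own start codon inside it. The UPF1 extension adds 11 codons to 1118 in frame.

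None of the 7 exons passed in a knockdown contrast, where 1.30% of the 6535 exons tested were called for total KD, 0.0153% for N-short KD, 0.490% for N-long KD and 0.367% for N-long against N-short KD. After adjustment limma also called 0 in each. The same edgeR test gave 1 member exon an unadjusted p under 0.05 for total KD, beside 505 of the 6535 exons tested, and 0 for the other contrasts. That exon was the SMG1 156-nt exon (chr16:18896052-18896207, minus strand), included at 96.3% in total KD and 98.5% in control at 48 hr and at 94.4% and 100.0% at 96 hr (log2 odds -2.71, SE 1.22, adjusted p = 0.573). It rests on 3 to 4 skipping reads in each total KD library and at most 1 in each control, and was -4.99 without the control of 48 hr and -1.40 without that of 96 hr. The UPF3A 161-nt exon differed from control by 2.23 ± 2.19 percentage points in total KD (SD, n = 2 sets), 0.698 ± 2.37 in N-long KD and -2.76 ± 1.80 in N-short KD (n = 3 sets each).

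Between 48 and 96 hr, 5 of the 7 exons passed, 4 lower and 1 higher at 96 hr, beside 16.5% of all exons tested (8.02% lower and 8.45% higher). Because of the shared junctions these 5 stand for 4 separate exons, of which UPF3A holds 2.

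The UPF3A 161-nt exon, whose skipping shifts the frame, was included at 94.9% in control, 95.6% in total KD, 97.7% in N-long KD and 93.5% in N-short KD at 48 hr. At 96 hr the values were 80.6%, 84.4%, 78.7% and 78.6%. Every library of 96 hr was below every library of 48 hr, by a mean of 14.8 ± 3.19 percentage points (SD, n = 4 groups), and the log2 odds fell by 2.33 (SE 0.297, edgeR adjusted p = 2.72e-07). The skipping junction had 3 to 8 reads per library at 48 hr and 17 to 27 at 96 hr. At 24 hr, inclusion was 81.2% to 84.5% in replicate 1 and 86.1% to 92.1% in replicate 2.

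The UPF3A 99-nt exon, whose skipping keeps the frame, was included at 84.7% in control, 81.3% in total KD, 93.8% in N-long KD and 80.8% in N-short KD at 48 hr. At 96 hr the values were 68.4%, 66.7%, 69.6% and 64.0%, again all below those of 48 hr (mean difference -18.0 ± 4.23 percentage points, SD, n = 4 groups). The log2 odds fell by 1.44 (SE 0.329, edgeR adjusted p = 0.00164). A form with an upstream splice site (142 nt, chr13:114286259-114286400) shares the downstream and the skipping junction, and also passed (log2 odds -1.5, SE 0.358, adjusted p = 0.00243). The junction specific to this form took only 0% to 10.3% of the reads at its donor over the 14 libraries. Its use did not pass for time (log2 odds -0.04, SE 0.685, edgeR adjusted p = 0.982). The call of the 142-nt form thus rests on the junctions shared with the 99-nt exon. Built into the principal transcript, this longer form stops the frame after 187 codons.

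The UPF3B 39-nt exon was included at 13.6% in control, 14.6% in total KD, 10.2% in N-long KD and 11.5% in N-short KD at 48 hr, and at 4.41%, 4.11%, 5.33% and 5.00% at 96 hr. The ranges did not overlap, but the inclusion reads were few, 9 to 15 per library at 48 hr and 3 to 4 at 96 hr. The log2 odds fell by 1.51 (SE 0.398, edgeR adjusted p = 0.00650). Without the total KD library of 48 hr the change was -1.22 and did not pass (adjusted p = 0.0627). A 91-nt form that shares its outer junction (chrX:119840594-119840684) did not pass (-1.36, SE 0.558, adjusted p = 0.107). The junction specific to that form had at most 1 read in any doxycycline library, so its value rests on the shared junction.

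The SMG1 58-nt exon was the one with more inclusion at 96 hr. At 48 hr it was included at 23.1% in control, 13.9% in total KD, 13.6% in N-long KD and 14.3% in N-short KD, and at 96 hr at 34.4%, 47.7%, 28.8% and 35.2%. The mean difference was 20.3 ± 9.84 percentage points (SD, n = 4 groups) and the log2 odds were 1.55 (SE 0.364, edgeR adjusted p = 0.00205). The 24 hr replicate 1 libraries were as high as any, at 46.0% to 52.6%, and replicate 2 was at 26.5% to 40.0%. With a mean of 41.7 reads per library this exon is not tested when 50 reads are required.

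**Figure D3:**
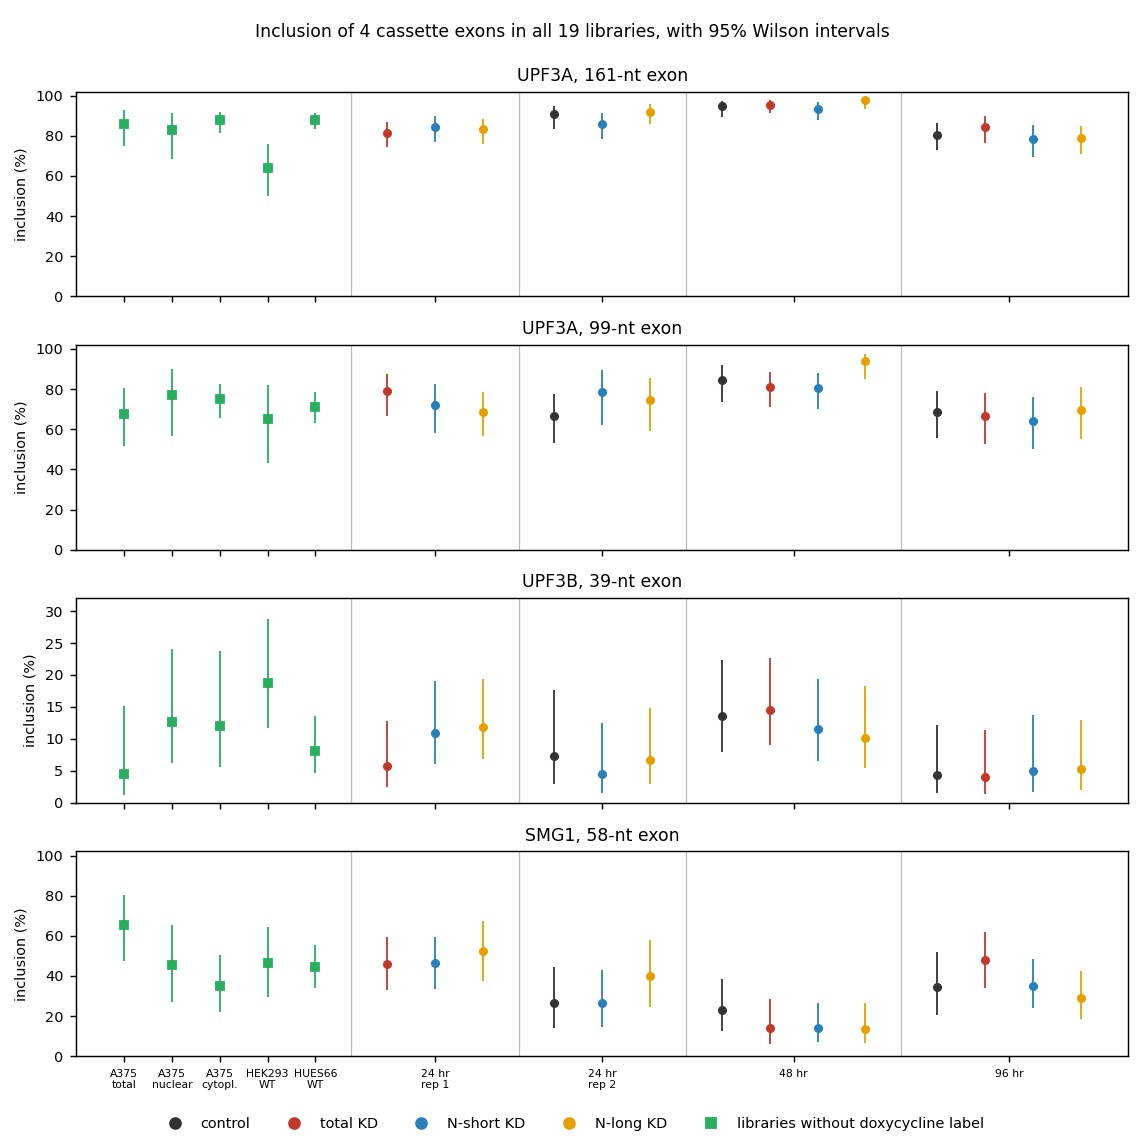
Inclusion in percent (y axis) of the UPF3A 161-nt, UPF3A 99-nt, UPF3B 39-nt and SMG1 58-nt exons in all 19 libraries (x axis, by cell line or library set), with 95% Wilson intervals; circles are coloured by knockdown, and the UPF3B panel has its own scale up to 32%. The 4 libraries of 48 hr lie above the 4 of 96 hr in the upper 3 panels and below them for SMG1.

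Introns that share a splice site were tested by the use of each against the others at that site, which adds alternative splice sites to the cassette exons. In the members 26 such introns were tested, and 0 passed in total KD, N-short KD, N-long KD or N-long against N-short KD, where 0.870%, 0.0147%, 0.365% and 0.268% of all 34007 were called. At an unadjusted p under 0.05 the edgeR test gave 4, 4, 0 and 0, beside 2275, 1402, 1730 and 1565 of the 34007. In total KD and in N-short KD the 4 were the same introns, the inclusion and skipping junctions of the SMG1 156-nt exon. They thus stand for 1 exon, which had few skipping reads. For 96 against 48 hr, 15 of the 26 passed, beside 13.2% of all introns, and all 15 belong to the UPF3A, UPF3B and SMG1 exons above, since 1 exon counts at up to 4 introns.

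UPF1 has 2 donor sites that differ by the 33 nt printed above; the longer form is known to extend a loop of the helicase domain. Its use was 17.1% to 22.9% at 48 hr and 10.1% to 16.7% at 96 hr, lower at 96 hr by 6.75 ± 0.896 percentage points (SD, n = 4 groups). The ranges did not overlap, but the change did not pass (log2 odds -0.70, SE 0.284, edgeR adjusted p = 0.0824). UPF2 has 2 first introns that share an acceptor, chr10:12035442-12042754 and chr10:12035442-12042913 (minus strand), and the first took 78.6% to 92.9% of reads over the 14 libraries, with no call for time (log2 odds 0.68, SE 0.483, adjusted p = 0.401).

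The authors' deposited tables of splicing events, 9 in number for 3 knockdowns at 3 times, list 67 to 86 events in 8 of the 9 members. None of the 678 member entries in them (0) had an authors' adjusted p under 0.05, the lowest being 0.282. Over all entries the authors' deposited tables give an adjusted p under 0.05 for 0.0349%, with a difference in inclusion of at least 0.1.

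Between cell lines each group is 1 library, so no test was made, and ratios carry 95% intervals for counting error only. The libraries of the lines also belong to separate library series, so line and series cannot be told apart. The fold between libraries follows; at 2-fold or more in either direction lay 45.1% of genes for A375 against HUES66 WT and 40.1% for HEK293 against HUES66 WT, and 0 and 3 of the 9 members. In A375, SMG9 was 1.96-fold (interval 1.73 to 2.22) and UPF1 1.42-fold (1.34 to 1.51) the HUES66 WT level, while UPF2 was at 0.530 of it (0.482 to 0.583). In HEK293, SMG9 was at 2.53-fold (2.26 to 2.82) and SMG8 at 2.04-fold (1.66 to 2.50). UPF3A was at 0.485 (0.423 to 0.555) in HEK293, and UPF3B at 1.53-fold (1.39 to 1.68), so that the paralogs stood on opposite sides of HUES66 WT.

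In CPM, UPF3A had 54.1 in HUES66 WT, 42.3 in A375 and 26.2 in HEK293, where UPF3B had 45.5, 44.8 and 69.8. SMG5 was the most even member, with 198 CPM in HUES66 WT, 184 in A375 and 195 in HEK293. With TMM scaling in place of total junction reads, the HEK293 ratios were lower for every member: SMG9 2.26, SMG8 1.82, UPF3B 1.37 and UPF3A 0.433.

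The HEK293 library was also below HUES66 WT in the inclusion of 1 UPF3A exon. The 161-nt exon was included at 64.0% there (Wilson interval 50.1 to 75.9, 50 reads), against 86.0% in A375 (74.7 to 92.7) and 88.1% in HUES66 WT (83.5 to 91.5). The interval of HEK293 lay below that of HUES66 WT and overlapped that of A375. Among the HUES66 libraries of 96 hr it overlapped those of control (73.0 to 86.5), N-short KD (69.5 to 85.5) and N-long KD (70.8 to 85.0). It lay below that of total KD (76.4 to 90.0). For the UPF3B 39-nt exon the values were 18.8% in HEK293 (11.7 to 28.7), 4.55% in A375 (1.26 to 15.1) and 8.11% in HUES66 WT (4.70 to 13.6), with overlapping intervals. The UPF3A 99-nt exon (65.0%, 67.6% and 71.3%) and the SMG1 58-nt exon (46.4%, 65.5% and 44.3%) also had overlapping intervals in HEK293, A375 and HUES66 WT.

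In the A375 fractions, 3 of the 9 members had at least 2-fold more CPM in nuclear than in cytoplasmic RNA, beside 22.7% of all genes. UPF3B was at 2.35-fold (interval 2.04 to 2.71; 50.8 against 21.6 CPM), SMG1 at 2.28-fold (2.18 to 2.39; 445 against 195 CPM) and UPF2 at 2.17-fold (1.93 to 2.45; 69.7 against 32.1 CPM). SMG8 (1.96, 1.46 to 2.62), SMG6 (1.45), SMG9 (1.42) and UPF1 (1.31) also had intervals above 1, and SMG5 was near even at 1.08 (1.01 to 1.14). UPF3A was the member below 1, with a log2 ratio of -0.27 (interval -0.479 to -0.065). That interval holds the median of all genes, a log2 ratio of -0.112. The paralogs UPF3A and UPF3B thus had intervals on opposite sides of 1 in this pair of libraries, but only the UPF3B interval lay off that median.

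Over all genes the median ratio of nuclear to cytoplasmic CPM was 0.925, and the median of the members was 1.45. Of the members 8 of 9 were above 1, the lowest of these, SMG5, at percentile 56.9 of all genes. UPF3A, below 1, was at percentile 44.4. The SMG1 pseudogenes took 21.9% of the reads of SMG1 and its copies in the nuclear library and 9.93% in the cytoplasmic one, so the SMG1 value is uncertain. The UPF1 33-nt extension was used in 30.0% of nuclear reads (21.1 to 40.8) and 19.3% of cytoplasmic reads (14.4 to 25.4), intervals that overlap. So did those of the UPF3A 161-nt exon, 82.9% and 87.8%, and of the SMG1 58-nt exon, 45.5% and 35%.

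**Figure D4:**
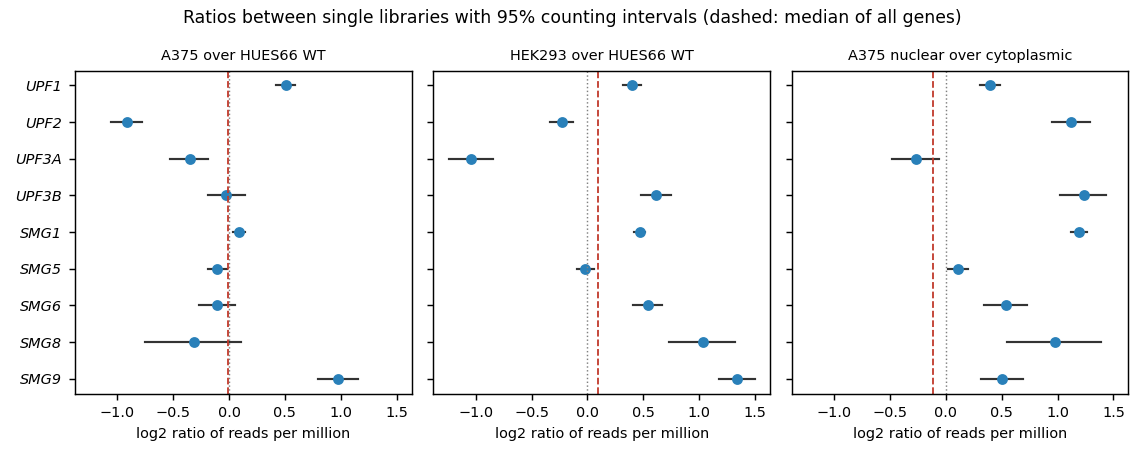
Log2 ratios of CPM (x axis) of the 9 members between single libraries, with 95% counting intervals; the dashed line is the median over all genes. UPF3A lies lowest in HEK293 over HUES66 WT (0.485-fold) and in A375 nuclear over cytoplasmic RNA (log2 ratio -0.27), and UPF3B highest in the latter (2.35-fold).

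Other genes of the pathway were taken in 4 lists of 25 genes in all: the exon junction complex (7 genes), translation termination (3), other decay factors (8) and decapping and decay enzymes (7). In total KD, N-short KD, N-long KD and N-long against N-short KD, 0 of the 25 passed, and DESeq2 called 0 in each. At an unadjusted p under 0.05 edgeR gave 4, 1, 0 and 2 of the 25, beside 1767, 537, 594 and 693 of the 13628 genes tested. At 96 against 48 hr 20 of 25 passed, 16 higher and 4 lower, beside the 59.0% of all genes given above. All 7 exon junction complex genes and all 3 termination genes were among the higher. The largest changes were in DHX34, a helicase (log2 fold change 0.78, SE 0.064), MAGOHB (0.71, SE 0.055) and EIF4A3 (0.61, SE 0.033), both of the exon junction complex core, NBAS (-0.52, SE 0.032), and ETF1, the release factor that reads stop codons (0.50, SE 0.031).

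Known targets of the pathway other than the members were a list of 15, of which 14 were tested. RP9P had too few reads in HUES66. Several members are targets of the pathway as well, and 0 of the 9 passed in total KD (log2 fold changes -0.08 to 0.26). In total KD 4 of 14 passed, all higher, beside 1.01% of all genes called higher. In the other knockdown contrasts 0 passed, and DESeq2 called 0. At an unadjusted p under 0.05 edgeR gave 0 to 2 targets in those contrasts, beside 537 to 693 of the 13628 genes tested. The small nucleolar RNA host GAS5 had 832 CPM in total KD and 721 in control at 48 hr, and 489 and 390 at 96 hr (log2 fold change 0.30, SE 0.038, edgeR adjusted p = 1.63e-06). The stress transcription factors ATF4 (0.26, SE 0.054, adjusted p = 0.00395) and ATF3 (1.02, SE 0.239, adjusted p = 0.0126) and the host gene ZFAS1 (0.19, SE 0.053, adjusted p = 0.0488) were the others. ATF3 was low throughout, at 6.46 against 2.78 CPM at 48 hr and 3.81 against 1.95 at 96 hr. The list was chosen with earlier results of these data known, and its genes also respond to stress, a part in the result that was not tested.

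The count of targets did not hold under every setting. It was 1 of 14 with the time point alone in place of the set and without the total KD library of 48 hr. Without the control of 48 hr or the total KD library of 96 hr it was 2 of 14. DESeq2 called 2 targets, with ZFAS1 at an adjusted p of 0.0552, but gave ATF3 no adjusted p. GAS5 passed in each of these settings. ATF3 lost its call without the control of 48 hr (adjusted p = 0.236) or the total KD library of 48 hr (0.0763) or 96 hr (0.0682), ATF4 without the control (0.0675) or the total KD library (0.129) of 48 hr, and ZFAS1 in 12 of the 14 fits that left out 1 library. Over all 14 such fits the log2 fold change stayed above 0, from 0.811 to 1.153 for ATF3, 0.186 to 0.322 for ATF4 and 0.139 to 0.285 for ZFAS1. At 96 against 48 hr 12 of 14 targets passed, 5 higher and 7 lower, beside 59.0% of all genes (29.3% higher and 29.7% lower). The largest changes were in GADD45B (log2 fold change -1.97, SE 0.194), CDKN1A (-1.58, SE 0.200), ATF3 (-0.88, SE 0.200), BAG1 (0.76, SE 0.054) and GAS5 (-0.74, SE 0.031).

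Over the 14 doxycycline libraries the gene most like each member in log2 normalised CPM was listed by Pearson r, as a description, since libraries of a set share their culture time and series. SMG5 was most like NCDN (r = 0.988), UPF2 like UTP18 (0.977), SMG6 like CC2D1B (0.95), SMG9 like RFX1 (0.95) and SMG1 like BDP1 (0.939). UPF1 was most like POU5F1, the pluripotency factor (0.921), SMG8 like ISG20L2 (0.907), UPF3B like EIF3J-DT (0.865) and UPF3A like DDIT4 (0.841). Among the members themselves SMG5 and SMG6 were most alike (0.87) and UPF3A and SMG5 least (-0.64).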

How the data were processed

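Junction files give counts: per the file headers and labels, each library's table lists splice junctions with the number of spanning reads, as deposited by the authors without normalization. The submitters' processing notes name STAR 2.7.1, SAMtools 1.9 and hg38, with no roles. The authors' deposited event tables hold their inclusion difference, on a scale of its own (other), and their p-values and adjusted p-values; 69 per-library columns of these were not used. Introns were matched to GENCODE 29, and reads on introns of 1 gene name (93.3% to 94.8% of junction reads) were summed per gene. CPM is reads per 1000000 junction reads, spike-ins left out.

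The 14 doxycycline libraries were fitted by quasi-likelihood (edgeR 4.0.16 under R 4.3.3; TMM, filterByExpr), with library set as a block and knockdown as terms. Deviations from knockdown means correlated within sets (median r 0.60, 0.36 to 0.79, 18 pairs) and less across sets (median -0.19, -0.70 to 0.54, 55 pairs), every within-set pair being over 0.1, so sets were taken to pair the libraries. Exons and introns were fitted as paired columns (mean of 20 reads, pooled share of 2% to 98%); inclusion reads are the rounded mean of both inclusion junctions. Thresholds were an adjusted p of 0.05. Fits were tested on simulated data. DESeq2 1.42.0 and limma 3.58.1 were alternatives.

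Members, gene lists and tests were chosen with earlier results of these data known. All 9 members are named; of the lists, genes past the threshold, at most 5 by size per contrast for factors and for targets. Single libraries carry Poisson, exact ratio or Wilson intervals (95%), for counting error only. Python 3.11.15, scipy 1.17.1 and matplotlib 3.10.9 were used.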

Additional observations from a re-analysis of the deposited data

Results flagged for a closer look

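SMG8 in the 4 N-short KD libraries had 1 value far from the others, 10.6 CPM in 24 hr replicate 1 beside 6.20, 6.55 and 6.85. The SMG1 156-nt exon in N-long KD had 1 low value, 91.2% at 96 hr beside 98.6%, 100% and 100%. Of 32 groups of 4 examined in this way 2 stood out. Chance flags about 1 in 20 where the 4 values are alike in kind, but here they come from 4 library sets, so that rate need not apply. Over all groups SMG8 was at 8.07 to 10.6 CPM in 24 hr replicate 1 and 5.91 to 7.39 in replicate 2. It was at 5.32 to 6.85 CPM at 48 hr and 6.20 to 9.72 at 96 hr.

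Reads outside the annotated introns formed unannotated introns in all 19 libraries for 4 members. The SMG6 one, chr17:2300665-2303013, had 411 reads, 14 to 43 per library, which is 63.1% of the median principal junction of SMG6; its lower-coordinate end is an annotated splice site and its other end is not. Those of SMG5 (chr1:156266381-156267469, 190 reads) and UPF3A (chr13:114282128-114286518, 104 reads) join annotated sites, and that of SMG1 (chr16:18812125-18815174, 126 reads) has 1 annotated end. The UPF3A one, with 1 to 16 reads per library, ends at the same acceptor as the skipping junction of the 99-nt exon. It passes over that exon, so the inclusion given for the exon does not count this skipping. None of these unannotated introns entered a comparison.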

How the results depend on the processing

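No member, member exon or member intron passed in a knockdown contrast under any alternative run. The 5 member genes called for time passed in every alternative, including the leave-one-out fits, with 5 to 7 members called. Member exons called for time numbered 3 when a mean of 50 reads was required, where fewer exons were tested, 4 with the smaller inclusion junction in place of the mean, and 4 to 5 when 1 library was left out (4 without the total KD library of 48 hr); the introns numbered 10 to 15, lowest without that same library. Without the replicate block (time point alone) the total KD change of UPF1 was 0.027, and with principal introns that of UPF3B was -0.012; adjusted p stayed at 0.904 and 0.970. Leaving out 1 library moved the total KD values of UPF2 from -0.002 to 0.083, of UPF3B from -0.031 to 0.073, of SMG5 from -0.014 to 0.021 and of SMG9 from -0.037 to 0.116.

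Of the other factors, 2 passed in total KD with HUES66 WT as a 24 hr control, and 0 to 1 when 1 library was left out (1 without the total KD library of 24 hr replicate 1 or of 96 hr). Targets called in total KD were 5 with HUES66 WT as a control, 1 without the replicate block and 1 to 4 when 1 library was left out. With DESeq2, which gave ATF3 no adjusted p, 2 targets were called. With TMM scaling the median member ratio was 1.23 rather than 1.38 for HEK293 over HUES66 WT, and 0.830 rather than 0.770 for A375 over HEK293. The cause was not tested. Fits without the block changed no other count of calls. With the 48 and 96 hr libraries alone, an alternative chosen after seeing the data, 5 exons and 15 introns of the members were called. Depth limits SMG8 (63 to 147 reads) and the exons with few reads of 1 form. Among these were the UPF3B 39-nt exon (3 to 15 inclusion reads per doxycycline library) and the SMG1 156-nt exon (0 to 6 skipping reads). The UPF3B 91-nt form had 1 to 6 inclusion reads, nearly all from the junction shared with the 39-nt exon.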
